A study of Mus musculus with 22 samples.

Results

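The healthy distal colon was described from the C57BL/6 mice of a study of Winnie mice, which carry a missense mutation in the goblet cell mucin gene Muc2 and develop colitis without further treatment. The libraries were chosen by their label alone, as the 8 C57BL/6 libraries among 22, with no measured value used. They came from 4 male and 4 female C57BL/6 mice aged 14 weeks, here numbered 1 to 4 (males) and 5 to 8 (females) in the order of the sample list. The other libraries, used only for comparison, were of 7 Winnie mice aged 14 weeks (3 males, 4 females) and of 7 others in which the rectum had prolapsed, aged 18 weeks (4 males, 3 females) and called Winnie-Prolapse. No treatment is given for any group. The C57BL/6 and Winnie mice came from the same breeding colony. Whole pieces of distal colon were used, so each library mixes mucosa, muscle, nerve, serosa and whatever fat or lymphoid tissue lay in the piece, and the time of day at which the tissue was taken is not given in the sources used here. In such bulk tissue, fewer cells of a type and less RNA per cell cannot be told apart.

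The distal colon is lined by a single layer of epithelium, in which absorptive colonocytes take up water, salt and short-chain fatty acids and goblet cells secrete the mucus that keeps bacteria from the surface. Stem cells at the base of the crypts renew this layer, and the lamina propria beneath it holds plasma cells that make IgA, macrophages and lymphocytes, with B cell follicles at intervals. Layers of smooth muscle, paced by interstitial cells of Cajal and steered by the enteric nervous system, form the wall, and a mesothelium covers it outside. Hox genes mark position along the gut, and those at the end of each cluster are used most in the hindgut.

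The 8 libraries held 25429915 (replicate 6) to 31505256 counts (replicate 3), and 88.3 ± 0.538% of the counts (SD, n = 8) lay in genes annotated as protein-coding. Across them 27912 genes had 1 count or more, and 13843 reached a count-per-million value (CPM) of 1 in every library. A gene with 0 counts could have had up to 3, which is 0.0952 to 0.118 CPM depending on the library, and this limit covers counting error only. No pair of C57BL/6 libraries agreed within sampling noise, so each counted as a separate sample. The labels name separate samples without saying how many preparations they came from, so p-values measure the spread between these samples.

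The tissue label was checked against genes that mark the posterior end of the body before any other result, because 1 library did not match the rest. Hoxd13, the last gene of the Hoxd cluster (chr2:74668310-74671599, plus strand, GRCm38), was at 0.217 CPM at the lowest, 205 at the median and 288 at the highest. The lowest value belonged to female replicate 7, with 6 counts, and the other 7 libraries lay between 132 and 288 CPM. The Winnie libraries ranged from 119 to 226 CPM and the Winnie-Prolapse libraries from 111 to 235, so replicate 7 stood apart from all 21 other libraries of the series.

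The neighbours of Hoxd13 in the cluster were low in the same library. Hoxd12 was 0 CPM in replicate 7 against 7.005 to 21.9 in the other C57BL/6 libraries. Hoxd11 was 0.543 CPM against 12.5 to 40.003. Hoxd10 was 1.16 CPM against 16.03 to 50.1. The gap narrowed toward the front of the cluster, where Hoxd9 was 2.898 CPM against 5.95 to 15.3. Hoxb13 (chr11:96194316-96197447, plus strand), the last gene of the Hoxb cluster, was 16.4 CPM against 377 to 612. Some genes that lie further forward in their clusters were higher in replicate 7 than in the other 7 libraries. Hoxa11 was 21.2 CPM against 4.05 to 5.65, and Hoxb5 was 20.1 against 4.29 to 8.83. Hoxb6 was 19.2 CPM against 1.88 to 7.56, and Hoxb8 was 7.57 against 0.5401 to 1.301. Not every posterior Hox gene was low. Hoxa13, at 86.6 CPM, lay within the 71.8 to 101 of the others.

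**Figure D1:**
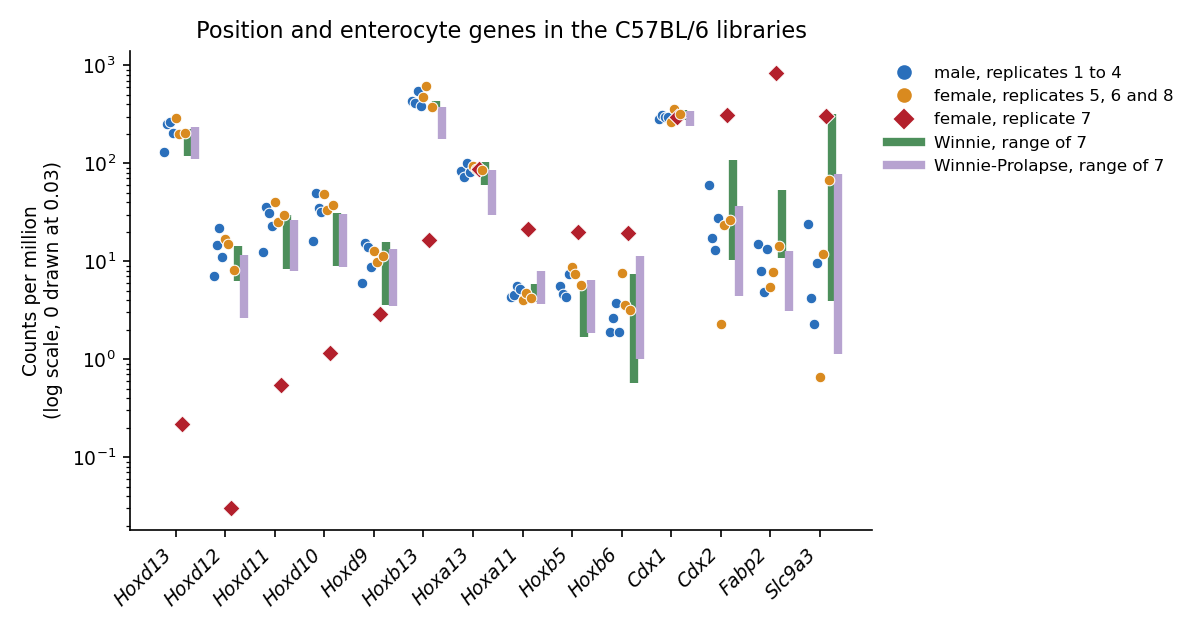
Counts-per-million (log axis, 0 drawn at 0.03) of position and enterocyte genes. Points are the C57BL/6 libraries (males blue, females orange, replicate 7 a red diamond) and bars the range of the 7 Winnie and 7 Winnie-Prolapse libraries. Replicate 7 lies below every bar for Hoxd13 to Hoxb13 and above the other C57BL/6 libraries for Hoxa11, Hoxb5, Hoxb6, Cdx2, Fabp2 and Slc9a3.

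Epithelial genes separated the same library. Fabp2, the intestinal fatty acid binding protein of enterocytes, was at 4.86 CPM at the lowest, 10.6 at the median and 845 at the highest, with every library other than replicate 7 at or under 14.97. Cdx2, a regulator of intestinal identity, was at 2.31 CPM at the lowest, 24.9 at the median and 315 at the highest. The related Cdx1 was level, at 263 to 358 CPM in all 8 libraries with replicate 7 at 299.7. Several genes were close to absent from every other C57BL/6 library and present in replicate 7. Sptssb, a subunit of the enzyme that starts sphingolipid synthesis, was 283 CPM against 0 to 0.718. Retnlb, a goblet cell antimicrobial protein, was 181 CPM against 0.0386 to 1.503, and the lipid transporter Abca12 was 84.3 against 0 to 0.0393. Isx, an intestinal homeobox gene, was 105 CPM against 0.1904 to 1.23. The brush border phosphatase Alpi was 97.95 CPM against 0.398 to 0.8201, and the sulfate transporter Slc13a1 was 40.1 against 0.0635 to 0.434. Fabp2, Alpi and Isx are also used by small intestinal enterocytes. Of other genes of those cells, Slc3a1, an amino acid transporter, was 92.8 CPM against 0.667 to 2.46, while Lct, Sis and Apoa4 were at 0.2898, 0.109 and 0.181 CPM in replicate 7, and their highest values over all 8 libraries were 0.315, 0.729 and 0.181 CPM.

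Other genes were well expressed in the other 7 libraries and nearly absent from replicate 7. Fxyd4, which regulates the sodium pump, was 0.0724 CPM against 126 to 178. Casp14, a caspase of differentiating epithelium, was 0 CPM against 39.4 to 77.8. The sugar phosphate transporter Slc37a2 was 1.96 CPM against 378 to 1012. A pump and an enzyme of the epithelial surface were also far lower in replicate 7. Atp12a, the colonic proton-potassium pump, was 6.27 CPM against 599.9 to 1655, and the transglutaminase Tgm3 was 78.3 against 2687 to 4098. Ly6g, best known as a neutrophil surface marker, was 3.804 CPM against 242 to 356, while the neutrophil genes S100a8 and S100a9 stayed at or under 0.617 CPM in all 8 libraries.

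Among 11768 genes with a mean of at least 5 CPM, replicate 7 was at least 2-fold above every other C57BL/6 library for 254 (2.16%) and at least 2-fold below for 356 (3.03%). For the other 7 C57BL/6 libraries these counts ran from 0 to 21 above and from 1 to 6 below. Some genes reached that mean only through replicate 7. With the mean taken over the other 7 libraries, replicate 7 was above for 198 of 11699 genes (1.69%) and below for 367 (3.14%), and the other libraries, treated alike, ran from 0 to 12 and from 1 to 6. The correlation of log2 CPM between replicate 7 and the others was 0.851 to 0.895, and between all other pairs 0.955 to 0.980. Results that rest on replicate 7 are therefore given with all 8 libraries and again over the 7 others, a choice made after seeing the data. Why it differed was not tested.

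The abundant genes of the healthy colon were a small set. In the mean of 8 libraries, 799 genes held 50% of the counts and 5932 held 90%, and the 50 highest held 19.5%. Without replicate 7 these values were 785 genes, 5887 genes and 19.6%. When counts were divided by gene length to give transcripts-per-million (TPM), which can be compared between genes, 255 genes held 50% of the total.

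The highest gene on either scale was mt-Co1, the mitochondrial subunit 1 of cytochrome oxidase (mitochondrial genome, 5328-6872), with 27496 ± 2803 CPM (SD, n = 8) and a mean of 47075 TPM. The second was Lypd8 (chr11:58379043-58390728, plus strand), a secreted epithelial protein that holds flagellated bacteria away from the surface, with 14548 ± 2152 CPM and 29918 TPM. Lypd8 lay between 14169 and 17457 CPM in 7 libraries and at 9844 in replicate 7, which was the lowest. The other nuclear genes among the 25 highest included genes of the mucosal barrier. Among them were the membrane mucins Muc3 (5089 ± 649.6 CPM) and Muc13 (2629 ± 442), and Pigr (4659 ± 697), which carries IgA across the epithelium. The galectin Lgals4 (4650.5 ± 509) and the scavenger protein Dmbt1 (4473 ± 1139.5) were others. Muc3 was lowest in replicate 7, at 3665 CPM, and was 5292 ± 326 CPM without that library.

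Of the 591 entries in 40 marker lists, 589 were matched, and their sums set the scale of each programme. The 127 genes of the epithelial lists held 7.42 ± 0.46% of the counts (SD, n = 8), the 54 of the mitochondrial lists 7.98 ± 0.52%, the 93 of the wall lists 1.97 ± 0.35% and the 108 of the immune lists 0.339 ± 0.089%. Over the 7 libraries without replicate 7 the shares were 7.37 ± 0.47%, 7.87 ± 0.46%, 1.86 ± 0.17% and 0.358 ± 0.078%. These shares follow the length and choice of the lists and are a description of those genes, not of cell numbers.

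**Figure D2:**
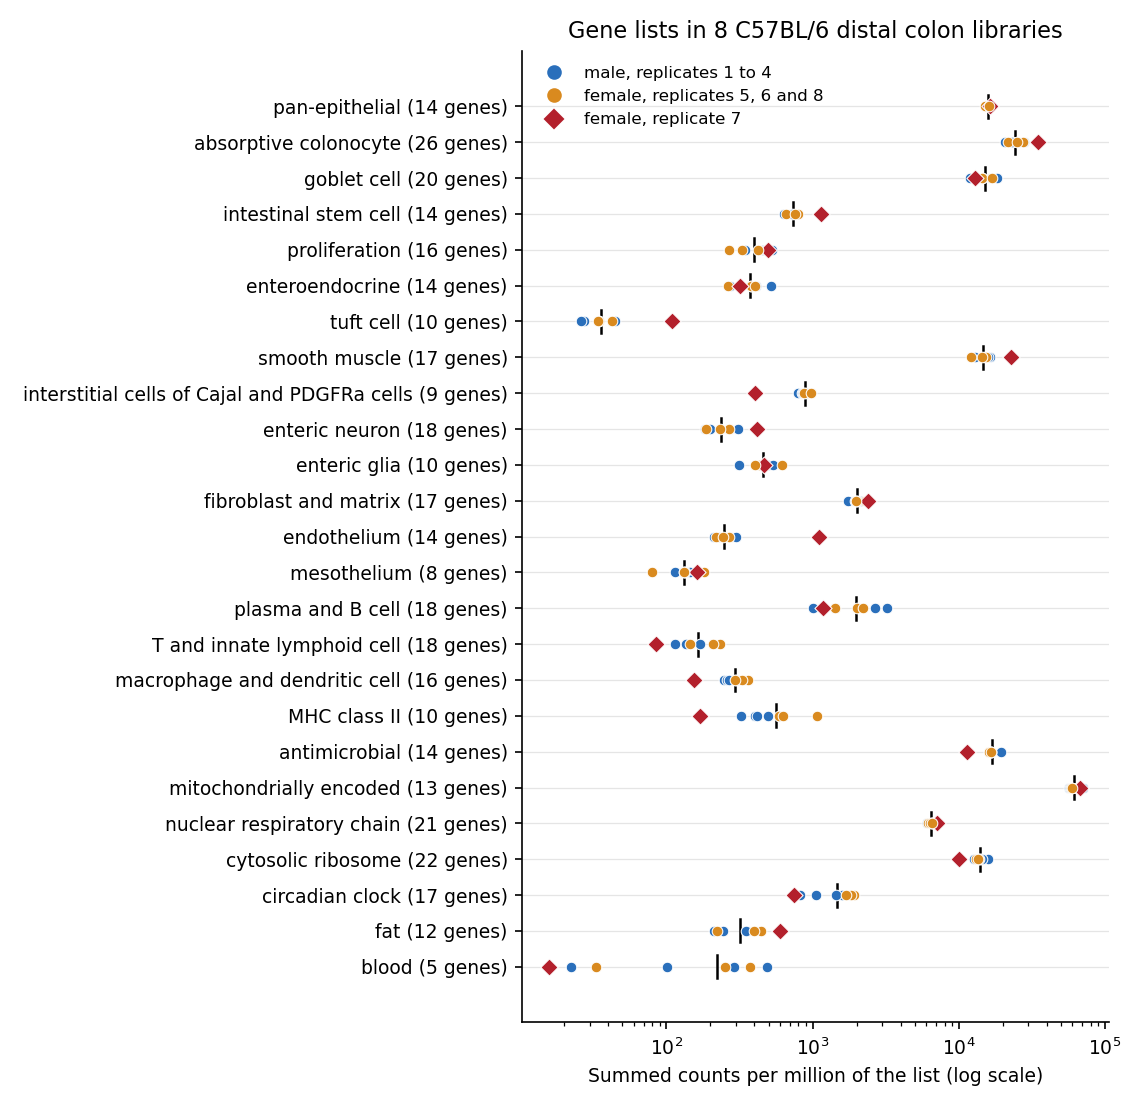
Summed CPM (log axis) of marker lists in the 8 C57BL/6 libraries, with males in blue, females in orange, replicate 7 as a red diamond and the mean of the 7 libraries without replicate 7 as a black tick. Mitochondrially encoded genes stand highest, the pan-epithelial points nearly coincide, and replicate 7 lies apart in the endothelial list, where the highest library is 5.25 times the lowest with it and 1.42 times without it.

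Genes shared by all epithelial cells had the smallest ratio of the highest to the lowest library among the 40 lists with 8 libraries, and the reference genes had it without replicate 7. The 14 pan-epithelial genes summed to 16012 ± 590.4 CPM, from 15159 to 16671. Epcam, the epithelial adhesion molecule, was at 1489 CPM at the lowest, 1675 at the median and 1747 at the highest. The keratin Krt8 was at 2365 CPM at the lowest, 2642 at the median and 3116 at the highest, with replicate 7 highest and the other 7 libraries within 2365 to 2765. Of the 14 genes, 1 had a standard deviation (SD) of log2 CPM of at least 1, with and without replicate 7, and in each case it was Cdx2. Over all genes with a mean of at least 5 CPM, 258 of 11768 (2.19%) reached that SD, and 76 of 11699 (0.65%) without replicate 7.

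Absorptive colonocyte genes summed to 25523 ± 4622 CPM over 26 genes. They were led by Muc3 and included Ceacam1, an adhesion molecule, with transporters and enzymes of salt and acid exchange. The sum was highest in replicate 7, at 35011 CPM, and was 24167 ± 2789 CPM without that library. Slc26a3, which exchanges chloride for bicarbonate, was at 1794 CPM at the lowest, 2572 at the median and 3893 at the highest, and the carbonic anhydrase Car4 at 1160.4 CPM at the lowest, 2074 at the median and 3027 at the highest. Car1, the other colonic carbonic anhydrase, was at 783 CPM at the lowest, 1917 at the median and 3412 at the highest, with male replicate 4 lowest, replicate 7 highest and the 6 others between 1515 and 2565. Of the 25 colonocyte genes with a mean of at least 5 CPM, 9 reached an SD of 1 with 8 libraries and 2 without replicate 7, namely Slc9a3 and Aqp4, against 2.19% and 0.65% of all genes. Ceacam1 was at 2036 CPM at the lowest, 2604 at the median and 9069 at the highest, and Guca2a, the precursor of guanylin, at 121 CPM at the lowest, 238 at the median and 2269.9 at the highest, both highest in replicate 7. The bile acid exporter subunit Slc51a was 22.9 CPM in replicate 7 and at or under 0.118 in every other C57BL/6 library.

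Slc9a3 (chr13:74121457-74169442, plus strand), the sodium-proton exchanger of the brush border, varied among the other libraries too. Its values in replicates 1 to 8 were 23.7, 4.205, 2.29, 9.58, 0.656, 11.99, 306 and 68.3 CPM. Without replicate 7 it still spread from 0.656 in replicate 5 to 68.3 in replicate 8, an SD of 2.17 on the log2 scale. The water channel Aqp4 had the same lowest library, with 206, 49.5, 43.8, 111, 24.6, 105, 579.6 and 164 CPM in replicates 1 to 8. Cdx2 (chr5:147300805-147307270, minus strand) was also lowest in replicate 5, with 60.6, 17.1, 12.95, 27.98, 2.31, 23.4, 315 and 26.5 CPM. What set their order was not tested.

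Goblet cell genes summed to 14859.8 ± 2231 CPM over 20 genes. Muc2, the gel-forming mucin mutated in Winnie mice (chr7:141690340-141754693, plus strand), was at 3193, 2834, 2505, 3893, 2718, 2739, 7901 and 2972 CPM in replicates 1 to 8. In the 7 libraries other than replicate 7 it covered 2505 to 3893 CPM. Some other mucus proteins were at their lowest in replicate 7, where Muc2 was highest. Fcgbp, the IgG Fc binding protein of mucus, was 1082 CPM in replicate 7 against 3412 to 4475. The mucus protease Clca1 was 1130.05 CPM against 1850.3 to 3650.1, and the lectin Zg16 was 1059 against 1734 to 3309. Of the 19 goblet cell genes with a mean of at least 5 CPM, 5 reached an SD of 1 with 8 libraries, and 0 of 17 did so without replicate 7, against the same shares. They included Reg4, a secreted lectin, at 5.65 CPM against 155 to 289, and the pentraxin Mptx1 at 49.95 against 663 to 1415. Per length, Zg16 (4708 TPM), Tff3 (3395 TPM), a trefoil peptide, and Mptx1 (3213 TPM) stood above Muc2 (1336 TPM). Ang4, an antimicrobial ribonuclease of goblet and Paneth cells, was at 4.13, 0.171, 0.0635, 0.434, 0.0386, 5.31, 53.03 and 10.6 CPM in replicates 1 to 8, below the 3-count limit in replicates 3 and 5.

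Stem cell and dividing cell genes were of moderate level. The stem cell list summed to 633 to 794 CPM in 7 libraries and to 1138 in replicate 7, where Prom1, a crypt cell membrane protein, was 602 CPM against 102 to 178. Lgr5, the receptor that marks crypt base stem cells, was at 4.65 CPM at the lowest, 8.996 at the median and 11.96 at the highest. Mki67, made in cycling cells, was at 47.3 CPM at the lowest, 91.5 at the median and 115 at the highest, lowest in females 5 and 6 and highest in male 4. Top2a, the topoisomerase of dividing cells, had the same library lowest (replicate 6, 26.03) and the same highest (replicate 4, 85.1).

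Enteroendocrine genes summed to 265 to 518 CPM. Pyy, which slows the gut after meals, was at 41.98 CPM at the lowest, 109.7 at the median and 159.9 at the highest. Insl5, a hormone of the distal colon, was at 18.7 CPM at the lowest, 53.1 at the median and 71.8 at the highest, lowest in replicate 7, where Gcg, which encodes glucagon-like peptides, was highest (42.8 CPM against 11.7 to 27.1) and likewise somatostatin, Sst (29.6 against 3.97 to 13.01). Tuft cell genes summed to 26.2 to 44.6 CPM in 7 libraries and 110.05 in replicate 7, with Dclk1 at 40.7 against 8.41 to 18.5 and the taste channel Trpm5 at 16.99 against 1.301 to 5.46. Both cell types are scattered singly in the epithelium, and their lists took a mean of 0.0369% and 0.00452% of the counts.

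Smooth muscle led the wall. Its 17 genes summed to 12055 to 16266 CPM in 7 libraries and to 22634 in replicate 7. Myh11 (chr16:14194535-14291372, minus strand), the smooth muscle myosin heavy chain, was at 1496, 1617, 2098, 1885, 1981, 2057, 3154 and 1420.3 CPM in replicates 1 to 8. Replicate 7 was highest and replicate 8 lowest. Tagln, an actin-binding protein, was at 1503 CPM at the lowest, 1958 at the median and 2154 at the highest, and Acta2, smooth muscle actin, at 1313 CPM at the lowest, 1699 at the median and 2167 at the highest. Per length Tagln (2477 TPM) and Acta2 (2042 TPM) were well above Myh11 (685 TPM).

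Genes of the pacemaker cells went both ways in replicate 7. In the list of interstitial cells, Ano1, the chloride channel of the pacemaker current, was 97.3 CPM against 287 to 381 and Thbs4, a matrix protein, 98.2 against 385 to 479.6, while Kit, the receptor that defines these cells, was highest there at 68.1 against 24.98 to 46.7. Ano1 is also made by epithelium, so its level is not particular to the pacemaker cells. Enteric neuron genes, like the muscle genes, had their highest sum in replicate 7. They summed to 185 to 308 CPM and to 416 in replicate 7. Nos1, which makes the relaxing transmitter nitric oxide, was at 14.3 CPM at the lowest, 30.1 at the median and 66.4 at the highest, and Vip, a relaxing peptide, at 18.1 CPM at the lowest, 31.6 at the median and 48.8 at the highest. Sox10, the regulator of enteric glia, was at 2.15 CPM at the lowest, 3.18 at the median and 4.89 at the highest. Erbb3, listed with glia, held most of that list with 246 to 551 CPM, and epithelium makes it too.

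Most collagen and vessel genes named here had a narrow range. Col3a1, a fibrillar collagen, was at 259.8 CPM at the lowest, 289.9 at the median and 346 at the highest, and Dcn, a matrix proteoglycan, at 208 CPM at the lowest, 254 at the median and 351 at the highest. Of the 17 genes of that list, 2 reached an SD of 1, with and without replicate 7, against 2.19% and 0.65% of all genes. Pi16, a marker of adventitial fibroblasts, was at 1.64, 8.61, 47.1, 4.48, 7.33, 6.53, 3.48 and 3.54 CPM in replicates 1 to 8, and male replicate 3 was highest. The complement gene C3, which epithelium and other cells also make, was at 101, 21.4, 82.5, 95.7, 84.4, 285, 209.5 and 185 CPM. The endothelial adhesion gene Pecam1 was at 18.7 CPM at the lowest, 25.6 at the median and 34.8 at the highest and Cdh5, the junction protein of vessels, at 5.905 CPM at the lowest, 7.28 at the median and 7.91 at the highest, while Rgs5, a gene of pericytes and smooth muscle, was 983 CPM in replicate 7 against 76.6 to 159 and set the sum of that list.

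Immune genes took a small share, and IgA led them. Igha, the heavy chain of IgA (chr12:113254830-113260236, minus strand), was at 1185, 419, 248, 985, 305, 677, 351 and 656 CPM in replicates 1 to 8. Males 1 and 4 were highest and male 3 lowest, so the sexes overlapped. Jchain, which joins IgA into dimers, was at 373, 136, 73.6, 279.9, 79.5, 172, 116 and 188 CPM in the same order of replicates. The Igha and Jchain values rose together across the libraries (Pearson r = 0.985, exact permutation p = 4.96e-05, adjusted p = 0.000496 over 10 gene pairs; Spearman rho = 0.976, exact p = 0.000397, adjusted p = 0.00397; n = 8). Without the 2 libraries farthest from the median of Igha, r was 0.970. Without replicate 7 it was 0.989 (exact adjusted p = 0.00397). Among all genes with a mean of at least 5 CPM, the 2 whose log2 CPM was most like that of Igha over those 7 libraries were the light chain Igkc (r = 0.993) and Jchain.

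B cell genes had another order of libraries. Cr2 (chr1:195136811-195176716, minus strand), the complement receptor of follicular B cells and follicular dendritic cells, was at 3.55, 8.51, 4.22, 5.42, 42.2, 11.7, 0.398 and 23.9 CPM in replicates 1 to 8. Female replicate 5 was highest and replicate 8 next. Pax5, the B cell regulator, was 34.8 CPM in replicate 5 and 14.6 in replicate 8. Replicate 5 was at least 2-fold above every other C57BL/6 library for 21 genes (0.178%), and for 12 (0.102%) of those with a mean of at least 5 CPM over the other 7. MHC class II genes, which B cells and other antigen-presenting cells use, summed to 1078 CPM in replicate 5, 169 in replicate 7 and 323 to 624 in the other 6.

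Other immune genes were low. The macrophage complement gene C1qa was at 17.6 CPM at the lowest, 30.8 at the median and 38.1 at the highest, with replicate 7 lowest. Lyz2, the macrophage lysozyme, was at 39.9 CPM at the lowest, 87.03 at the median and 139.8 at the highest. Cd3e, part of the T cell receptor complex, was at 0.833 CPM at the lowest, 1.13 at the median and 3.01 at the highest. Inflammatory genes were low as well. The cytokine Il1b was at 0.239 CPM at the lowest, 0.746 at the median and 2.12 at the highest, and Tnf at 1.22 CPM at the lowest, 1.99 at the median and 8.64 at the highest. Lcn2, a neutrophil and epithelial protein that binds bacterial siderophores, was at 0.386 CPM at the lowest, 0.963 at the median and 1.71 at the highest. It covered 0.878 to 23.2 CPM in Winnie libraries, which overlapped C57BL/6, and 19.7 to 1015 in Winnie-Prolapse libraries, which did not. Of the interferon genes, Irf7 was 203 CPM in replicate 7 against 59.3 to 96.5, and Ifit1 38.8 against 4.34 to 15.2.

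Mitochondrially encoded genes were the largest of the 40 lists by summed CPM. The 13 protein genes of the mitochondrial genome held 6.27 ± 0.51% of the counts (SD, n = 8), between 5.71% in replicate 2 and 7.05% in replicate 1. The share was 5.75 ± 1.01% in Winnie (n = 7), and the difference of 0.521 percentage points from C57BL/6 did not pass the test (two-sided exact permutation test, p = 0.222). Without Winnie replicate 5, the highest of its group, the difference was 0.875 points, which is given with no test because that library was singled out by this share. In Winnie-Prolapse the share was 4.69 ± 0.76% (n = 7), 1.57 points below C57BL/6, with no overlap of the groups (exact permutation p = 0.000311, the smallest this design allows). Winnie-Prolapse mice were also 4 weeks older, and age cannot be told apart from prolapse here.

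The 13 genes were counted very unevenly. Subunits of cytochrome oxidase, the final enzyme of the respiratory chain, ran from 27496 CPM for mt-Co1 to 5.31 for mt-Co2 and 3.58 for mt-Co3, and the ATP synthase subunit mt-Atp6 averaged 4.92 CPM. Mitochondrial genes have near-identical copies in the nuclear genome, and the counting of reads shared by copies is not given in the sources used here, so the levels of these genes are uncertain and the share follows mainly mt-Co1, mt-Cytb, mt-Nd1, mt-Nd4, mt-Nd5 and mt-Nd2. The same caution holds for Gapdh, at 23.6 to 32.03 CPM, and for Ppia, at 8.77 to 17.2, which have many pseudogenes. Nuclear genes of the respiratory chain had small spreads, with a median SD of log2 CPM of 0.13 over 21 genes against 0.21 over all genes with a mean of at least 5 CPM. Atp5a1, the catalytic-head subunit alpha of ATP synthase, had the lowest SD with 8 libraries of all genes with a mean of at least 100 CPM, 0.03, and was next to Mia3 without replicate 7, with 1091 CPM at the lowest, 1119 at the median and 1182 at the highest.

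Butyrate is the main fuel of colonocytes, and the genes that import and burn it had a narrow range outside replicate 7. The transporter Slc16a1 was at 317 CPM at the lowest, 447 at the median and 537 at the highest and Slc5a8, which takes up butyrate with sodium, at 217 CPM at the lowest, 324 at the median and 412 at the highest. Hadh, an enzyme of fatty acid oxidation, was at 242 CPM at the lowest, 261 at the median and 280.3 at the highest. The list summed to 2422 to 2876 CPM in the libraries other than replicate 7 and to 3780 CPM in replicate 7. Of the 18 genes, 1 reached an SD of 1 with 8 libraries and 0 without replicate 7. Over all genes the shares were 2.19% and 0.65%, so with 18 genes these counts say little about the list.

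Metabolic and secreted defence genes of the epithelium differed in their spread. Cholesterol synthesis genes summed to 1881 to 2847 CPM. Of the 15, 0 reached an SD of 1 with or without replicate 7, against 2.19% and 0.65% of all genes. Their median SD of log2 CPM was 0.30 with 8 libraries and 0.28 without replicate 7, against 0.21 and 0.18 over all genes. Hmgcs1, an early enzyme of that pathway, was at 289.7 CPM at the lowest, 406 at the median and 560.2 at the highest. Xenobiotic metabolism genes were wider, with 5 of 13 at an SD of 1 with 8 libraries and 0 of 12 without replicate 7, against 2.19% and 0.65% of all genes. Cyp2c55, a cytochrome P450 of the colon, was at 1056, 1599.7, 524, 331, 392, 477, 3166 and 541 CPM in replicates 1 to 8. Its relative Cyp2c68 had the opposite extreme, with 8.66 CPM in replicate 7 against 77.6 to 138. Among antimicrobial genes Saa1, a serum amyloid A gene that colonic epithelium makes, was at 617 CPM at the lowest, 1159.8 at the median and 1612 at the highest. Duox2, the oxidase that makes hydrogen peroxide at the surface, was at 84.7 CPM at the lowest, 161 at the median and 624 at the highest, highest in replicate 7. Genes that respond within minutes to handling or stimulation included Fos, at 83.8 CPM at the lowest, 141 at the median and 214 at the highest, and Fosb, at 25.3, 6.15, 13.8, 34.5, 8.83, 23.3, 11.5 and 2.95 CPM in replicates 1 to 8. Of the 15 such genes with a mean of at least 5 CPM, 3 reached an SD of 1 with 8 libraries (Fosb, Nr4a1 and Cyr61) and 3 without replicate 7 (Fosb, Nr4a1 and Atf3), against the same 2.19% and 0.65%.

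Lists for other tissues were checked as well. Squamous epithelium, which lines the anal canal, was represented by Sprr1a at 1.45 CPM at the lowest, 4.53 at the median and 44.6 at the highest, with replicate 7 highest, while 10 of its 14 listed genes, the keratins Krt5 and Krt13 and the regulator Trp63 among them, stayed under 1 CPM in every library. Skeletal muscle genes summed to 19.4 to 52.5 CPM, mostly Ckm, the muscle creatine kinase, at 12.1 CPM at the lowest, 19.9 at the median and 46.4 at the highest. Of 13 genes of pancreas and small intestine, 10 stayed under 1 CPM in every library, including the pancreatic Prss2 and Pnlip. Cela1, an elastase, was the highest of the 13 by mean, with 53.4 CPM in replicate 7 against 208 to 349.

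The median gene with a mean of at least 5 CPM had an SD of log2 CPM of 0.21 over 8 libraries and 0.18 over 7. Of the 258 genes with an SD of at least 1, replicate 7 was the library farthest from the mean for 221, and 67 of them stayed above 1 when it was left out. The 25 most variable genes, Xist to Hoxd12, included 20 where replicate 7 was farthest, and 8 were also among the 25 most variable without it. Below rank 25 the next was Tmprss13, with 2.66 against 2.71 for Hoxd12. The common biological coefficient of variation from edgeR, the relative spread between animals after counting error, was 25.2% with 8 libraries and 17.8% with 7, against 26.4% in Winnie and 38.7% in Winnie-Prolapse.

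**Figure D3:**
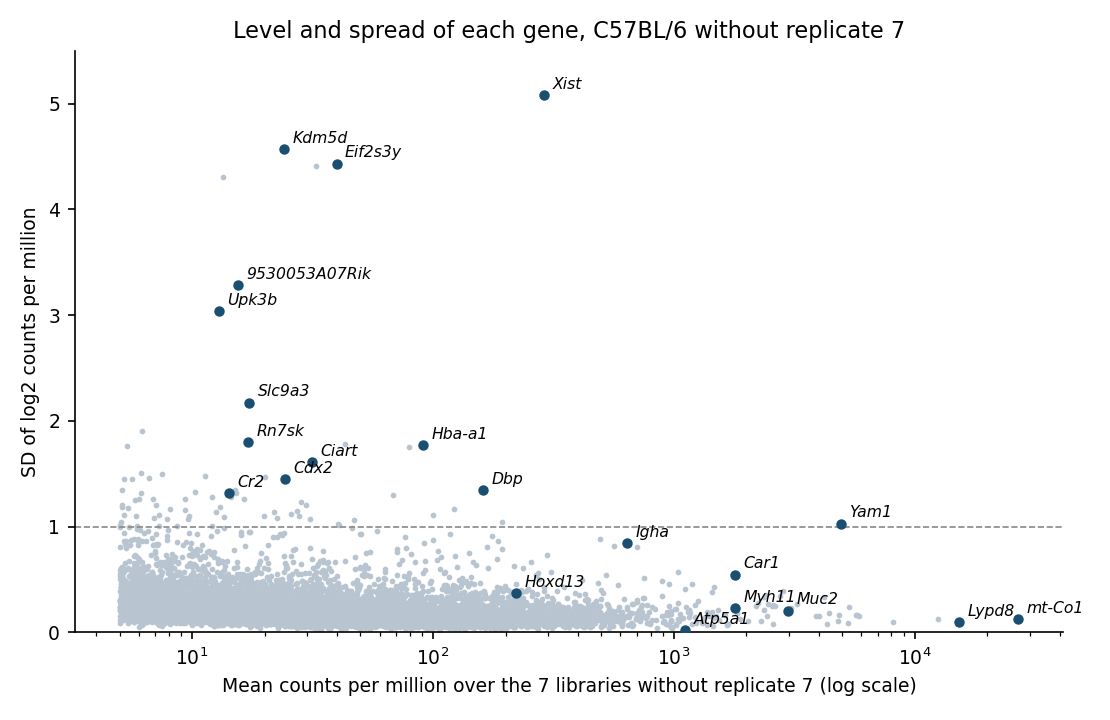
Each point is a gene with a mean of at least 5 CPM over the 7 C57BL/6 libraries without replicate 7, placed by that mean (log axis) and by the standard deviation of its log2 CPM over the same libraries, with named genes marked and a dashed line at 1. The most abundant genes, mt-Co1 and Lypd8, lie near the bottom of the range, and 76 of 11699 genes lie on or above the line.

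Genes often used as references in quantitative PCR had a narrow summed range. The 22 reference genes summed to 13961 to 15978 CPM, a ratio of 1.14 with 8 libraries and 1.07 without replicate 7. Ywhaz, a 14-3-3 protein, was at 514 CPM at the lowest, 543 at the median and 624 at the highest, and Gusb, a lysosomal enzyme, at 23.2 CPM at the lowest, 23.8 at the median and 26.3 at the highest. Actb, cytoplasmic actin, ran from 4902 to 8267 CPM with replicate 7 highest, and Tfrc, the transferrin receptor, from 107 to 359, also with replicate 7 highest.

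The mean absolute deviation of a library from its own group was compared across 11901 genes. It was 0.235 ± 0.085 in C57BL/6 (SD, n = 8), 0.278 ± 0.062 in Winnie (n = 7) and 0.332 ± 0.080 in Winnie-Prolapse (n = 7), on the log2 scale. The difference of C57BL/6 from Winnie was -0.0434 (two-sided exact permutation p = 0.296) and from Winnie-Prolapse -0.0972 (exact p = 0.0398). Replicate 7 was the highest C57BL/6 library at 0.441. Without it the C57BL/6 value was 0.195 ± 0.00958 (n = 7), and the difference from Winnie was -0.0823, given with no test because replicate 7 was singled out by a high deviation. The difference from Winnie-Prolapse no longer passed the test with TMM factors or around the group median, or when any C57BL/6 library but replicate 7 was left out, or Winnie-Prolapse replicate 2, 3, 4 or 6, with values between -0.0698 and -0.0939.

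Among the 7 libraries other than replicate 7, sex-linked genes were the most variable, and the next was 9530053A07Rik (chr7:28129466-28164811, plus strand), a protein-coding gene with 0.239, 107, 0.476, 0.289, 0.347, 0.0393, 0.2898 and 0.199 CPM in replicates 1 to 8. It was high in male replicate 2 and at or under 0.476 CPM in all others. It lies directly after Fcgbp (chr7:28071236-28120862, plus strand), which was level in that library at 3629.7 CPM.

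Genes of the outer surface of the colon also varied between these libraries. Upk3b (chr5:136038496-136046487, plus strand), a mesothelial membrane protein, was at 20.1, 0.4102, 3.14, 16.8, 0.0772, 32.7, 32.96 and 17.3 CPM in replicates 1 to 8. Msln, or mesothelin, was at 5.47, 0.752, 0.9205, 5.06, 1.74, 11.6, 13.6 and 6.96 CPM and Wt1, the mesothelial transcription factor, at 2.67, 0.137, 0.444, 2.39, 0, 6.095, 5.36 and 1.46 CPM. Replicates 2, 3 and 5 were lowest for all 3 genes, and among the 7 libraries without replicate 7 they held the 3 lowest values of 7 of the 8 mesothelial genes. The exception was the keratin Krt7, which epithelium also makes and which was highest in replicate 2.

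Fat genes had the same low libraries. Adipoq, the adipocyte hormone adiponectin, was at 6.697, 2.05, 2.06, 6.51, 2.93, 13.3, 20.6 and 16.2 CPM in replicates 1 to 8, and Cfd, adipsin, at 41.2, 6.73, 9.74, 30.3, 11.997, 42.7, 73.3 and 38.1 CPM. Replicates 2, 3 and 5 held the 3 lowest of the 7 values for 8 of 11 fat genes detected. Over 11695 genes with a mean of at least 5 CPM, each symbol counted once, the same 3 libraries were lowest for 338 (2.89%) and highest for 333 (2.85%). Igha, Jchain, Iglc1, Cdx2, Slc9a3, Aqp4 and Cldn15, a claudin, were among the former, and Hoxd13 and Hoxd11 among the latter. Other position and epithelial genes that were looked at, Hoxd10, Hoxb13, Hoxa13 and Guca2a, were in neither set. These 3 libraries were singled out after their values were seen, are no group of the study and were not tested.

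Haemoglobin transcripts followed yet another order. Hba-a1, an alpha globin, was at 38.7, 132, 190.2, 9.69, 99.5, 156, 6.41 and 12.5 CPM in replicates 1 to 8, and Hbb-bs, a beta globin, at 31.6, 54.5, 196, 7.59, 97.5, 153, 5.07 and 13.98 CPM. Replicates 4, 7 and 8 were low and replicate 3 high. Alas2, the red cell enzyme of haem synthesis, was lowest in the same 3 libraries, at 0.434, 0.2898 and 0.729 CPM.

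**Figure D4:**
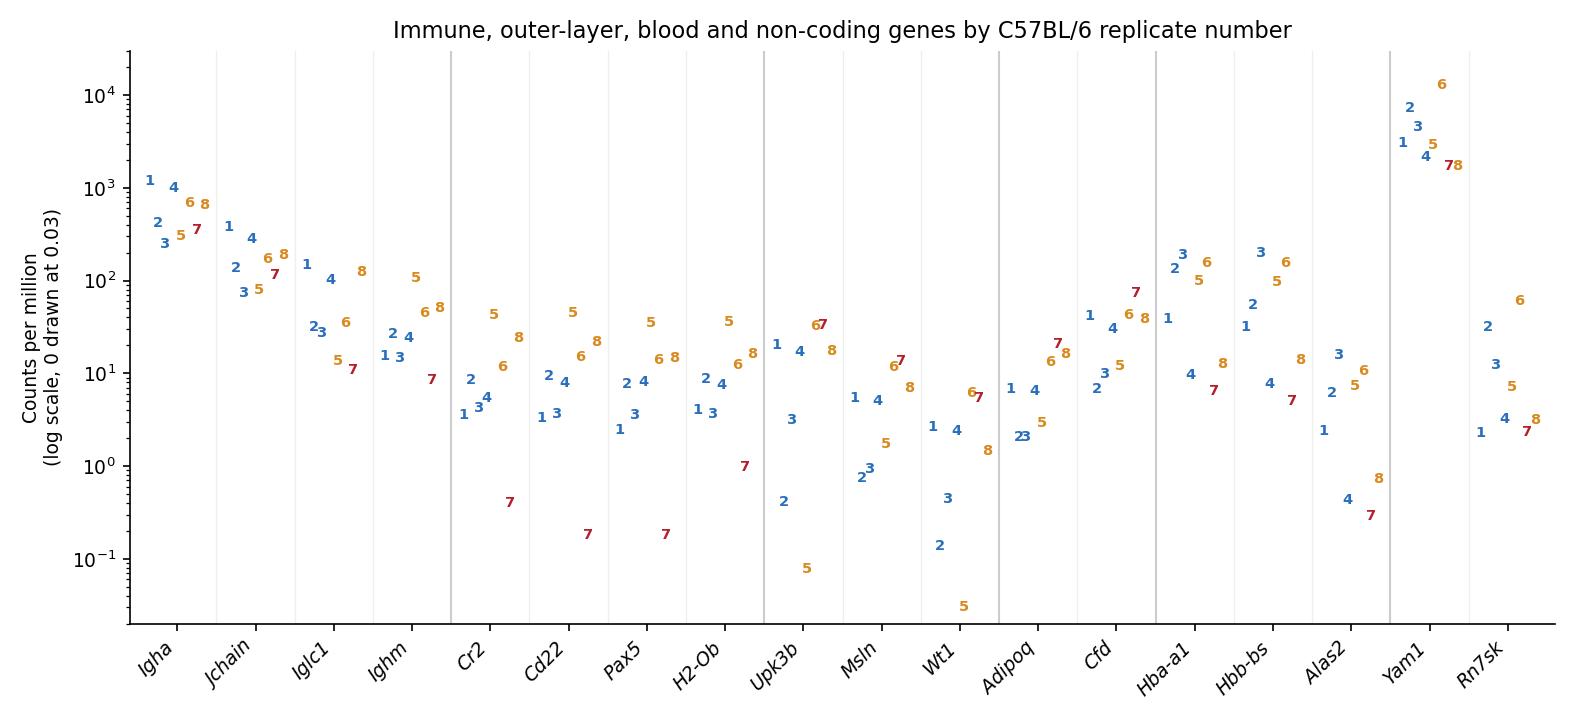
Counts-per-million (log axis, 0 drawn at 0.03) of variable genes, each digit being the replicate number of a C57BL/6 library (males blue, females orange, replicate 7 red). Igha and Jchain are highest in replicates 1 and 4, B cell genes in replicate 5, and mesothelial genes lowest in replicates 2, 3 and 5.

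A pair of non-coding RNAs varied strongly. Yam1 (chr17:39846958-39848788, plus strand), annotated as a long intergenic RNA, was at 3007, 7219.7, 4556, 2149, 2885, 12964, 1716 and 1704 CPM in replicates 1 to 8, which placed it among the 25 most abundant genes. Rn7sk (chr9:78175303-78175633, minus strand), the small nuclear RNA that restrains transcription elongation, was at 2.26, 31.3, 12.4, 3.18, 7.06, 60.6, 2.32 and 3.11 CPM. Both were highest in female 6 and second highest in male 2. Rn7sk carries no poly(A) tail, and the libraries were made from poly(A) RNA. Whether the Yam1 counts come from a poly(A) RNA was not tested either, so its place among the abundant genes is a place by counts only.

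Clock genes varied in a common order of libraries. The core clock runs on the activators Clock, Npas2 and Arntl (also called Bmal1), which bind E-boxes in the genes of their own repressors Per and Cry and of output factors such as Dbp, Tef and Ciart. Dbp (chr7:45705088-45710203, plus strand), a transcription factor that binds D-boxes, was at 56.5, 163, 134, 21.5, 266, 254, 49.4 and 232 CPM in replicates 1 to 8. Ciart (chr3:95878503-95882251, minus strand), a repressor of the clock, was at 9.12, 37.6, 28.7, 2.53, 40.8, 58.9, 5.25 and 43.4 CPM, and Tef, a relative of Dbp, at 99.1, 228, 191, 66.2, 296, 243, 63.8 and 230.4 CPM. Replicates 1, 4 and 7 were the lowest 3 for all of these and for Per3 and Nr1d2.

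The activators had the opposite order. Arntl was at 38.4, 16.9, 25.3, 56.5, 16.4, 21.9, 42.7 and 21.9 CPM in replicates 1 to 8 and Npas2 at 49.6, 27.6, 38.5, 57.3, 22.2, 29.5, 51.6 and 22.99 CPM, with replicates 1, 4 and 7 highest for both. Clock itself was level at 104 to 145 CPM. Dbp and Arntl were inversely related over the 8 libraries (Pearson r = -0.946, exact permutation p = 0.00141, adjusted p = 0.00707 over 10 pairs; Spearman rho = -0.929, exact p = 0.00223, adjusted p = 0.0112). Without the 2 libraries farthest from the median of Dbp, r was -0.840 (exact p = 0.0403, adjusted p = 0.134). Without replicate 7 it was -0.939 (exact adjusted p = 0.0288), and with 2 further libraries left out -0.369 (exact p = 0.442), so the relation then rested on the libraries left out. Nr1d1, a repressor of Arntl, was at 329.8, 384, 188, 102, 349, 289.6, 122 and 432 CPM and did not share the order exactly, since replicates 3 and 6 lay below replicate 1. Of 16 clock genes with a mean of at least 5 CPM, 3 reached an SD of 1 (Dbp, Ciart and Per3), and 2 did so without replicate 7 (Dbp and Ciart), against 2.19% and 0.65% of all such genes.

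**Figure D5:**
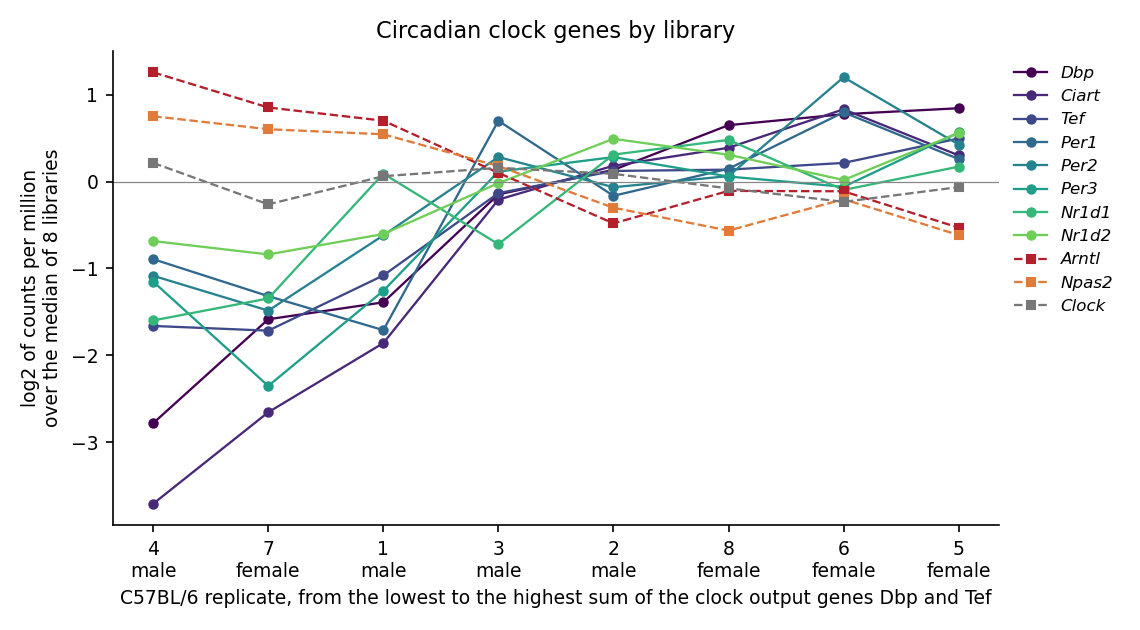
Clock genes in the 8 C57BL/6 libraries, as log2 of CPM over the median of the 8 libraries, with the libraries ordered along the horizontal axis from the lowest to the highest sum of Dbp and Tef. The output genes (solid lines) lie below 0 in replicates 4, 7 and 1 at the left, Nr1d1 in replicate 1 excepted, Arntl and Npas2 (dashed lines) lie above 0 there, and Clock stays near 0.

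Promoter sequences were read for the clock genes, 15 of 17 of which had an entry in RefSeq for GRCm38, and the 250 bases before each start site were searched on both strands. The E-box CACGTG reads the same on either strand and occurred in the promoters of 5 clock genes (Ciart, Per1, Tef, Cry1 and Bhlhe41) and in 6.02% of 32851 promoters in the table. The D-box TTATGTAA occurred in 1, Per3, and in 0.819% of all promoters, and the element TAGGTCA bound by Nr1d factors in 1, Nfil3, and in 2.23%. A clock gene was counted if any of its start sites held the motif, while the shares are of single promoters. The counts and shares are therefore not in the same unit. None of these motifs lay in the window of Dbp or Arntl, which says only that the letters are not in this window. The sequences of 4 genes that held a motif and were lowest in replicates 1, 4 and 7 are shown 5′ to 3′, with the motif in capitals. They cover chr3:95882229-95882478 (minus strand) for Ciart, chr11:69098699-69098948 (plus) for Per1, chr15:81802423-81802672 (plus) for Tef and chr4:151044666-151044915 (minus) for Per3. Per1 and Tef each have another start site in the table, and the window shown is the first that held the motif. The other site of Tef also held an E-box, and that of Per1 did not. Cry1, Bhlhe41 and Nfil3 held a motif too and are not shown. The genes shown were picked partly by their order of libraries, so they cannot tie motif to order.
Ciart: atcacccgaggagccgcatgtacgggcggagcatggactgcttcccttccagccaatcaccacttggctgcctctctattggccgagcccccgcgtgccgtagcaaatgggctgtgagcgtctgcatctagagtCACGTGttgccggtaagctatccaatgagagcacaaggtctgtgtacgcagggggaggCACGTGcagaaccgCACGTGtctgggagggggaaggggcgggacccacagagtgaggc
Per1: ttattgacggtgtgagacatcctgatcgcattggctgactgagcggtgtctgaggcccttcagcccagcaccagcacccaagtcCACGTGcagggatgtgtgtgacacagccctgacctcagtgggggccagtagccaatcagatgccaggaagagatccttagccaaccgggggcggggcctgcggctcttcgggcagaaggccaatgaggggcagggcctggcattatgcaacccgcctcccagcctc
Tef: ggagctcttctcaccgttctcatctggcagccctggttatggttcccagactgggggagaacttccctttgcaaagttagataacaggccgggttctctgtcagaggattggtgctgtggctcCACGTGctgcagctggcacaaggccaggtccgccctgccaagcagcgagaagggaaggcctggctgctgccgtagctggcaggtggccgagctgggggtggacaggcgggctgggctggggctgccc
Per3: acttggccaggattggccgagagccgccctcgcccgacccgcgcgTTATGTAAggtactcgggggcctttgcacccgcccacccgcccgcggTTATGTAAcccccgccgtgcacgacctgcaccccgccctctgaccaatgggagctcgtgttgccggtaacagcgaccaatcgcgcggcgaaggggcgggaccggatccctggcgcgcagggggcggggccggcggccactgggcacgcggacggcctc
Ciart held 3 E-boxes, the first beginning 116 and the last 44 bases before the start site, and had the widest range of these genes as a ratio of highest to lowest, 2.53 to 58.9 CPM. Per1 held 1 E-box 166 bases before its start and Tef 1 at 127 bases, and their levels ran from 22.2 to 126 and from 63.8 to 296 CPM. Per3 held 2 D-boxes, at 205 and 158 bases before its start, and ran from 22.3 to 168 CPM. A match of letters is a description and not evidence of binding in these tissues.

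Sex was the only contrast the labels gave within the C57BL/6 mice. Of 17270 genes put to edgeR's quasi-likelihood test, 7 differed between males and females (0.0405%), by at least 1.5-fold with a Benjamini-Hochberg p below 0.001. Without replicate 7 the test also called 7 genes (0.0399% of 17549), but without replicate 1, 2, 3, 5 or 8 it called 2, without replicate 4 it called 3 and without replicate 6 it called 5. The 6 higher in males (0.0347%) all lay on the Y chromosome and 1 was higher in females (0.00579%), the X-inactivation RNA Xist (chrX:103460366-103483254, minus strand). Xist was 1.22 ± 0.786 CPM in males and 646 ± 70.6 CPM in females (SD, n = 4 each; log2 change male minus female -9.04 ± 0.54, SE, edgeR adjusted p = 1.90e-04). Each library matched the sex on its label by these genes, replicate 7 included.

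The Y genes were at or near the limit of detection in females. Ddx3y, an RNA helicase, was 57.2 ± 5.44 CPM in males and at most 0.197 in females (edgeR adjusted p = 1.35e-05). Eif2s3y, a translation factor, was 69.5 ± 9.63 CPM in males and at most 0.511 in females, and the histone demethylases Kdm5d and Uty were 42.2 ± 3.68 and 23.5 ± 1.86 CPM in males and at most 0.315 and 0.0786 in females. The Y-linked transcripts Gm28588 and Gm29650 were 4.52 ± 1.24 and 3.26 ± 0.824 CPM in males. Among X-linked genes that escape inactivation, Kdm5c was 91.3 ± 5.66 CPM in males and 171 ± 23.8 in females, with no overlap, and did not pass (edgeR adjusted p = 0.0520).

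No autosomal gene was called in either direction, although 1030 genes had an unadjusted p under 0.05 with edgeR. On simulated data of this size the test recovered 0% of 200 genes changed 2-fold, 73% changed 4-fold and 87.5% changed 8-fold. The simulation took its spread from all 8 libraries, replicate 7 included, and recovery without that library was not simulated. At that spread, 2-fold differences were not detectable with 4 mice of each sex. DESeq2 called 8 genes higher in males and 3 in females. Of the 7 genes, 5 were also called in Winnie (0.0288% of genes called there) and 1, Xist, in Winnie-Prolapse (0.00565%), in the same direction. The Y genes not called there still did not overlap between the sexes in either group. In Winnie-Prolapse, Ddx3y was 49.7 to 67.6 CPM in males and at most 0.589 in females (edgeR adjusted p = 0.0953). No difference in the sex effect of the 7 genes between those groups and C57BL/6 passed the interaction test (lowest edgeR adjusted p = 0.228).

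The remaining marker pairs, chosen to stand for cell types, did not pass the test with 8 libraries. Car1 and Muc2, of colonocytes and goblet cells, had r = 0.275 with 8 libraries (exact permutation p = 0.391, adjusted p = 0.651; Spearman rho = -0.167) and r = -0.899 without replicate 7 (exact p = 0.0133, adjusted p = 0.0443; rho = -0.75, adjusted p = 0.166). With 2 further libraries left out r was -0.674 (exact p = 0.192). Igha and Muc2 had r = -0.000126 with 8 libraries and 0.787 without replicate 7 (exact p = 0.0244, adjusted p = 0.0610). Myh11 had r = 0.262 with Col3a1 (exact adjusted p = 0.673) and r = 0.536 with Elavl4, an enteric neuron gene (exact adjusted p = 0.429), and without replicate 7 the signs turned, to -0.167 and -0.101. Mki67 had r = -0.301 with Car1 (exact adjusted p = 0.673).

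Likeness over all genes gave clear neighbours for few of these markers. Over the 7 libraries without replicate 7, the gene most like Mki67 was Ttk, a mitotic kinase (r = 0.994), followed by Birc5, a mitotic survivin (r = 0.991), and the genes most like Dbp were Ciart (r = 0.988) and Tef (r = 0.986). For Car1, Fos, Myh11 and mt-Co1, 0 of the 5 most alike genes came from the same list. With 7 points shared by all genes, high values arise for many pairs, and these are descriptions with no test.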

How the data were processed

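RNA of distal colon from 22 mice was sequenced from poly(A)-selected, stranded libraries, and the 8 C57BL/6 libraries were analysed. Per the labels and the study's methods, the authors aligned reads with STAR to GRCm38 and counted them per gene with featureCounts inside RNAsik 1.5.4, and deposited a table of raw counts for 46078 genes with no normalization. The handling of reads shared by several genes is not given in the sources used here.

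From these counts, CPM was computed on library totals, and log2 values and correlations used a prior count of 2. TPM used GENCODE gene lengths. Genes with a mean of at least 5 CPM entered the measures of spread. The sexes were compared with edgeR 4.0.16 (quasi-likelihood test, TMM factors, filter on low counts, Benjamini-Hochberg adjustment, p below 0.001 and 1.5-fold), tested on simulated data first, with DESeq2 1.42.0 and limma 3.58.1 as alternatives in R 4.3.3. Group means and marker pairs were compared by two-sided exact permutation tests (scipy 1.17.1). Depth was 25429915 to 31505256 counts per C57BL/6 library.

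The genes named are the 25 of highest mean, the 25 of highest spread, the 10 of lowest spread above 100 CPM, the highest and most variable genes of each list, sex calls, marker pairs and their nearest genes. A few genes that this rule names are not reported here. Others, such as those that set replicate 7 apart, were named after their values were seen. The libraries and gene lists were chosen with earlier results of these data known. Promoter sequences are from RefSeq for GRCm38, and gene positions from GENCODE. Replicate numbers follow the sample list and pair no mice.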

Additional observations from a re-analysis of the deposited data

Results flagged for a closer look

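In 99 groups of 7 or 8 libraries the gap between the highest or lowest library and its nearest neighbour, divided by the whole range, was compared with the 95% critical value of Dixon's test (0.526 for 8 libraries, 0.568 for 7). Chance marks about 1 in 20 groups. Of 40 list sums, 13 exceeded it, each through C57BL/6 replicate 7. Over all groups, 37 did so, 35 of them through replicate 7, but these include the 25 genes of highest spread, for which 1 in 20 is not the rate by chance. Values below are that ratio.

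For whole libraries, replicate 7 was far from the others in its deviation from the group mean (0.848, high) and in its mean correlation with its own group (0.904, low). Winnie replicate 5 was far above its group in the mitochondrially encoded share (0.695).

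Among summed gene lists, replicate 7 was high for endothelium (0.902), tuft cell (0.780), squamous epithelium (0.735), interferon response (0.732), intestinal stem cell (0.681), butyrate and fatty acid oxidation (0.666), smooth muscle (0.602) and skeletal muscle (0.5400). It was low for interstitial cells of Cajal and PDGFRa cells (0.678), neutrophil and acute inflammation (0.663), antimicrobial (0.562), Hox position (0.541) and mast cell and eosinophil (0.5401). A single gene set most of the gap for endothelium (Rgs5), squamous epithelium (Sprr1a), skeletal muscle (Ckm), intestinal stem cell (Prom1), neutrophil and acute inflammation (Ly6g) and antimicrobial (Lypd8).

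Among the 25 genes of highest mean, replicate 7 was high for Ceacam1 (0.816), Muc2 (0.743) and Actb (0.532). It was low for Prdx6 (0.712), Fcgbp (0.687), Tgm3 (0.649), Eef1a1 (0.588), Lypd8 (0.568), Ckmt1 (0.555) and Muc3 (0.533).

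Among genes chosen for their spread, where the ratio is only a description, replicate 7 was high for Abca12 (0.9995), Sptssb (0.997), H2-T3 (0.994), Retnlb (0.992), Slc13a1 (0.991), Isx (0.9902), Apol10a (0.989), Ang4 (0.8001) and Slc9a3 (0.778), and low for Fxyd4 (0.709). Replicate 2 was high for 9530053A07Rik (0.996).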

How the results depend on the processing

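No paired analysis was possible because replicate numbers follow the sample list, the groups compared are different mice, and the first digit that some sample titles share pairs no mice and has no meaning stated in the labels. Depth limits genes below the 3-count limit. At the spread of all 8 libraries, 4 mice of each sex limit the sex comparison to large differences. The cause of a change below was not tested unless stated.

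Of the sex calls, genes higher in males and in females numbered 8 and 3 with DESeq2, 8 and 4 with all 22 libraries and group as covariate, 0 and 0 among libraries with titles beginning with 4, and 0 and 0 where every library had to hold at least 10 counts, a filter that removes genes absent from 1 sex and left 930 genes at an unadjusted p under 0.05. Leaving out single C57BL/6 libraries gave 2 to 6 and 0 to 1. Leaving out replicate 1, 2, 3, 5 or 8 gave 2 and 0, replicate 4 gave 2 and 1, replicate 6 gave 4 and 1, and replicate 7 gave 6 and 1.

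Without mitochondrial genes, the 50 and 500 highest genes held 14.5% and 38.7%, the epithelial lists 7.98% and the mitochondrial lists 1.0007%. As TPM, 255 genes held 50% and the 50 and 500 highest held 30.9% and 58.9%. With a mean of at least 1 CPM the median SD was 0.25 and 527 genes reached an SD of 1, against 114 with a mean of at least 20 CPM. Leaving out single libraries gave 76 (without replicate 7) to 291 genes.

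Of the marker pairs, leaving out the 2 libraries farthest from the median gave -0.583 for Car1 and Muc2, -0.860 for Muc2 and Myh11, -0.141 for Myh11 and Elavl4, -0.256 for Myh11 and Col3a1, -0.292 for Car1 and mt-Co1, and -0.840 for Dbp and Arntl (exact adjusted p = 0.134). Igha and Muc2 gave 0.000302 with TMM factors and 0.0574 with sex means removed, and Mki67 and Car1 gave 0.00502 with sex means removed. Leaving out single libraries gave r from -0.899 (without replicate 7) to 0.714 for Car1 and Muc2, from -0.305 (without replicate 7) to 0.787 for Muc2 and Myh11, from -0.101 (without replicate 7) to 0.695 for Myh11 and Elavl4, from -0.167 (without replicate 7) to 0.617 for Myh11 and Col3a1, from -0.237 (without replicate 7) to 0.363 for Car1 and mt-Co1, from -0.455 to 0.118 (without replicate 4) for Mki67 and Car1, and from -0.207 to 0.787 (without replicate 7) for Igha and Muc2, which was also above 0 without replicate 1, 6 or 8. Dbp and Arntl ranged from -0.980 to -0.907, the latter without replicate 4 (exact adjusted p = 0.0565).

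The deviation of C57BL/6 libraries from their group mean, less that of Winnie-Prolapse, was -0.0698 with TMM factors (exact p = 0.116) and -0.0814 around the group median (exact p = 0.106). It ran from -0.137 (without C57BL/6 replicate 7) to -0.0781 over single libraries left out, and did not pass without any of the other 7 C57BL/6 libraries or without Winnie-Prolapse replicate 2, 3, 4 or 6 (largest exact p = 0.103). Against Winnie it ran from -0.0823 (without C57BL/6 replicate 7) to -0.0253. The mitochondrially encoded share exceeded that of Winnie by 0.374 to 0.875 points, the latter without Winnie replicate 5. Both of these libraries were the highest of their group in the value compared.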

Other observations

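Protein synthesis and stress genes of the C57BL/6 libraries had narrow ranges apart from replicate 7. The 22 cytosolic ribosome genes summed to 12683 to 15814 CPM in 7 libraries and to 10019 in replicate 7. The 10 heat shock genes summed to 1099 to 1300.3 CPM, and Hspa8, the constitutive chaperone, was at 602 CPM at the lowest, 665 at the median and 731 at the highest. Genes of T and innate lymphoid cells, and of mast cells and eosinophils, were low. Of the 18 genes of T and innate lymphoid cells, 2 had a mean of at least 5 CPM, and the 18 together summed to 84.5 to 234 CPM. Mast cell and eosinophil genes summed to 2.32 to 6.61 CPM over 12 genes, led by Cma1, a mast cell chymase, at 0.181 CPM at the lowest, 1.93 at the median and 2.39 at the highest.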
